A study of Homo sapiens with 121 samples.

Results

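The DNA replication and S-phase genes described here are 43 genes that copy the genome or prepare the cell to do so. They were taken by symbol from a list, and all 43 symbols were found among the 25610 genes read. The samples were 121 single cells of the human embryonic stem cell (hESC) line WA26, an established line grown without feeder cells in E8 medium. Telomere length and the transcriptome were measured in each cell by scT&R-seq. In this method poly(A) RNA is pulled away from the lysed cell on beads and copied into cDNA by Smart-seq2, and the DNA left behind gives the T/R ratio, a qPCR measure of telomeric DNA (T) relative to the Alu elements of the genome (R). The labels placed 81 cells in the long, 25 in the medium and 15 in the short telomere group. All cells shared the line and its routine culture, with a ROCK inhibitor added at passage, and no edit, culture, plate or day was named for them. Each group therefore counted as 1 sample, single cells did not count as replicates, and no p-value was computed. The SD given is the spread across cells.

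DNA replication starts at origins that are licensed in G1, when the origin recognition complex, CDC6 and CDT1 load the MCM helicase onto DNA. Cyclin E with CDK2 and the E2F transcription factors then bring the cell into S phase, where CDC45 and the GINS complex activate the helicase, primase and the DNA polymerases copy the strands, and the clamp PCNA, loaded by the RFC complex, keeps the polymerases on the template. Human ES cells are known for a short G1 and a large share of cells in S phase, and in many cell types these genes peak near the entry into S phase while a separate group of genes peaks at mitosis.

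E2F factors bind near the start of many replication genes at sites written TTTCCCGC, TTTGGCGC, TTTCGCGC or TTTGCCGC, and these letters were searched on both strands in windows of 250 bases before to 50 bases after the gene start, from RefSeq on GRCh38.p14. A window was given for 37 of the 43 genes, and 20 of the 37 (54.1%) held at least 1 match, against 3.31% of 35116 windows of the same length and 6.63% of the 9411 genes that had a window and reached a mean TPM of 1. The CCAAT box, read as CCAAT, was present for 21 of the 37 genes (56.8%), against 43.0% of the tested genes with a window, 56.6% of 53 other replication genes and 89.5% of 19 mitosis genes. The mitotic CHR element, read as TTTGAA, was present for 1 gene, RRM1, or 2.70%, against 13.9% of the tested genes with a window and 68.4% of the mitosis genes. A match is a run of letters and not a shown binding site, and the search was not tested against binding data. The stretches around the matches are given for 5 genes whose transcripts had a correlation of -0.3 or lower with mitosis genes, for PCNA (-0.26) and for GINS1, which had the highest value (0.31). They are 30 bases long, 5′ to 3′ on the strand of the gene, with the matching letters in capitals.
MCM6 (chr2:135876575-135876604, minus strand): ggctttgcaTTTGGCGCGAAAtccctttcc
MCM6 (chr2:135876513-135876542, minus strand): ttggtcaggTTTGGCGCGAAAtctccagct
MCM2 (chr3:127598404-127598433, plus strand): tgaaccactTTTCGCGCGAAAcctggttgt
CDC6 (chr17:40287875-40287904, plus strand): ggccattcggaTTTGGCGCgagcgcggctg
POLE (chr12:132687342-132687371, minus strand): tgggtgggagcGCGCCAAAtttctcccctg
E2F1 (chr20:33686393-33686422, minus strand): tttcGCGGCAAAaaggaTTTGGCGCgtaaa
PCNA (chr20:5126663-5126692, minus strand): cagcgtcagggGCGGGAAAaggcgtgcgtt
GINS1 (chr20:25407667-25407696, plus strand): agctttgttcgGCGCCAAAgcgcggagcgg

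MCM6, MCM2 and E2F1 held more than 1 match in the stretches shown, and in MCM6 and MCM2 the letters on either strand overlapped. The 250 bases before the start of MCM6, a subunit of the helicase, held 4 matches in 2 places, more than for any other of the 37 genes, and are printed whole.
MCM6 upstream (chr2:135876444-135876693, minus strand, GRCh38.p14): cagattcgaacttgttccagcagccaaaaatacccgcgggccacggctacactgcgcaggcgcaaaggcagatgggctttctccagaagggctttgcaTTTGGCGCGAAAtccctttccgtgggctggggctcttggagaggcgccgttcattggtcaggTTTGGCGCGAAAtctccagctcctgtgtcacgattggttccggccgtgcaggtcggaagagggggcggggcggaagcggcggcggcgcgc

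Expression was given as TPM, a share of the transcripts of a cell that is by definition scaled by transcript length. The values of each cell summed to between 979828 and 997050, and over 11391 genes listed at 0 in at least 1 cell the lowest value above 0 fell with transcript length (Spearman's rho -0.64). Levels of different genes are set side by side below on this basis. The reads behind a TPM value are not known, and no counting error could be given. A gene was called detected in a cell above TPM 1. The cells differed widely in how many genes were detected, from 2030 to 11515, and values are given for all cells, for the 68 cells with more than 8000 detected genes (51 long, 14 medium and 3 short) and for the other 53 (30 long, 11 medium and 12 short). The defining markers of hESCs POU5F1, LIN28A, DPPA4 and L1TD1 were detected in all 121 cells. TDGF1 was detected in 119 cells, DNMT3B in 118, NANOG in 116 and SOX2 in 113. Of the 15 short telomere cells, TDGF1 and DNMT3B were each detected in 13, NANOG in 11 and SOX2 in 12. Of 7 endoderm and mesoderm markers, GATA6 was detected in 0 cells and 5 others in 1 to 5 cells, while MIXL1 was detected in 46. Of 3 neural markers, NEUROD1 was detected in 0, SOX1 in 9 and PAX6 in 33 cells. Of 6 fibroblast markers, LUM and COL3A1 were detected in 0 cells, DCN in 1 and COL1A1 in 21, and COL1A2 and THY1 in 77 and 114. The mean log2(TPM + 1) over these 3 lists differed by -0.08, 0.15 and 0.24 between long and short telomere cells, and the part of such genes in the results was not tested.

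Over the 121 cells all 43 genes reached a mean TPM of 1, the minimum for the comparisons, which 13439 genes met in all. Their mean TPM had a median of 46.3, against 8.50 over those 13439 genes. PCNA, the sliding clamp, was the most abundant with a mean TPM of 428. GMNN, which encodes geminin, the inhibitor of CDT1, followed with 312, and GINS2 with 223. In all, 10 genes reached a mean TPM of 100, among them RFC4 (157), RRM2 (155), CDCA7 (154) and MCM3 (134). The lowest were E2F1, a transcription factor that turns on S-phase genes, with 2.87, POLE, the catalytic subunit of polymerase epsilon, with 3.63, and CCNE2, a cyclin E, with 4.61. GMNN, MCM4, MCM7, ORC6 and RRM2 were above 0 in every cell, and the other 38 genes were listed at 0 in at least 1 cell. CCNE2 was listed at 0 in 72 of the 121 cells and GINS3 in 48.

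The plot of levels shows how far apart these genes lay and how wide each one was in cells above 8000 genes. There, 24 of the 43 were above 0 in every cell. The spread across these 68 cells depended on the level: the 13 genes with a mean log2(TPM + 1) above 6 had a median SD of 0.70, and the 16 genes with a mean of at most 4 had a median SD of 1.25. The steadiest were MCM3 (SD 0.49), MCM7 (0.50), PCNA (0.52) and RRM2 (0.56). The widest were GINS3 (1.86), CCNE2 (1.69) and CCNE1 (1.65). For comparison, all 13439 genes had a median SD of 1.17 on the same scale and the 43 genes one of 0.99.

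**Figure D1:**
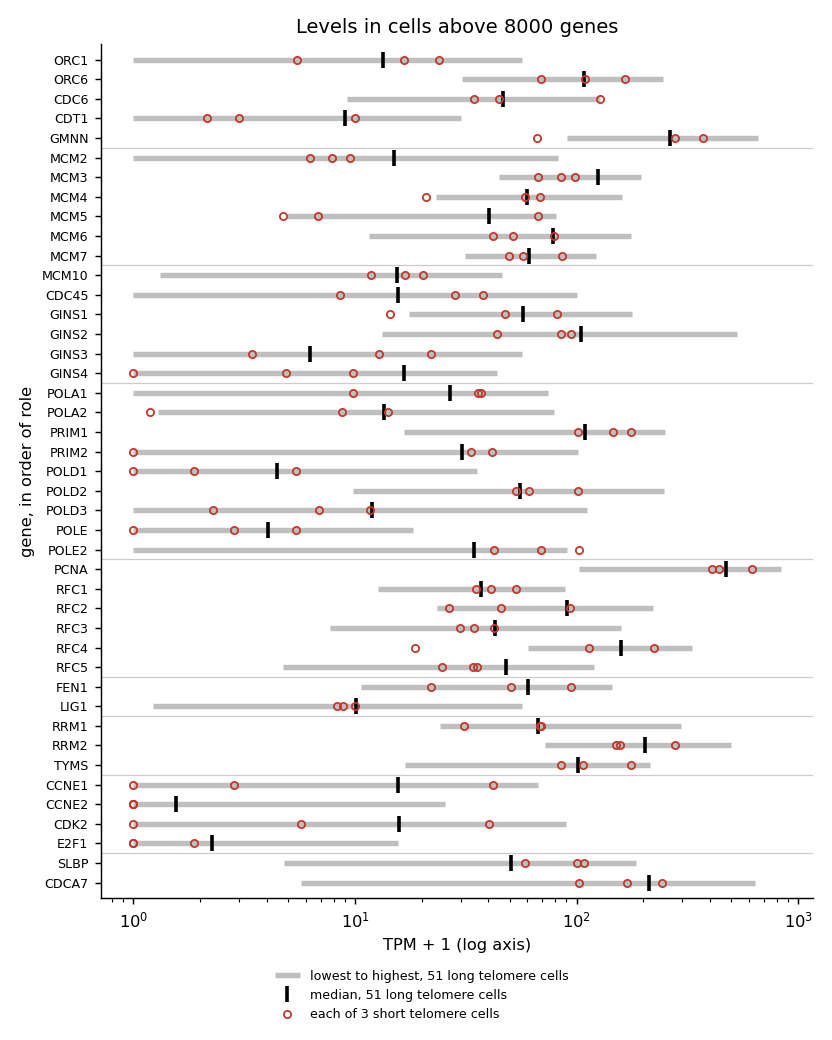
TPM + 1 on a log axis for each of the 43 genes (vertical axis, grouped by role) in cells above 8000 detected genes. Grey bars run from the lowest to the highest of 51 long telomere cells, black ticks mark their median, and red circles are the 3 short telomere cells. For 6 genes 1 of the 3 circles lay below the grey bar, and for 1 gene, POLE2, 1 lay above it.

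The level of the whole group in a cell was summarised as the replication score, the mean log2(TPM + 1) over the 43 genes. Over all cells it ran from 1.94 to 5.66 with a median of 4.87 in long telomere cells, from 3.01 to 5.27 with a median of 4.80 in medium telomere cells, and from 1.16 to 4.85 with a median of 2.75 in short telomere cells. Most short telomere cells lay low, but the ranges of the 3 groups overlapped. The means were 4.61 ± 0.73, 4.45 ± 0.73 and 3.14 ± 1.22 (SD, n = 81, 25 and 15 cells). The difference of 1.47 between long and short telomere cells was larger than the SD of either group, and the difference of 0.16 between long and medium cells was well within it. The number of these genes detected per cell had a median of 25 in the short telomere group and of 39 in both of the others.

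The number of all detected genes moved with this difference. Its median was 9165 for the long, 8626 for the medium and 5620 for the short group, and across the 121 cells the replication score had a Pearson correlation of 0.80 with it (Spearman's rho 0.76). These and later correlations describe cells of 1 line with libraries made by 1 protocol. Over the same cells, the 24 mitosis genes had a mean score of 5.46 in long and 3.70 in short telomere cells, and 8 hESC markers differed by 1.52. The part of detection in the difference between groups was not tested. Within the cells above 8000 genes the difference was smaller. There the scores of the 51 long, 14 medium and 3 short telomere cells were 5.01 ± 0.26, 4.92 ± 0.24 and 4.65 ± 0.27 (SD). The 3 short telomere cells had scores of 4.76, 4.85 and 4.34, and all lay inside the long range of 4.18 to 5.66. The difference of 0.36 between long and short cells in this set rested on 3 cells and came to between 0.20 and 0.46 when each was left out in turn. It was 0.20 without the cell with the lowest score. The difference of 0.08 between long and medium cells was smaller than the SD of either group. In cells with up to 8000 genes the scores of the long, medium and short groups were 3.93 ± 0.78, 3.85 ± 0.72 and 2.76 ± 1.06. The difference between long and short cells there was 1.17, at medians of 5889 and 5387 detected genes. In those 53 cells the score still had a correlation of 0.62 with the number of detected genes, against 0.15 in the 68 cells above 8000.

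**Figure D2:**
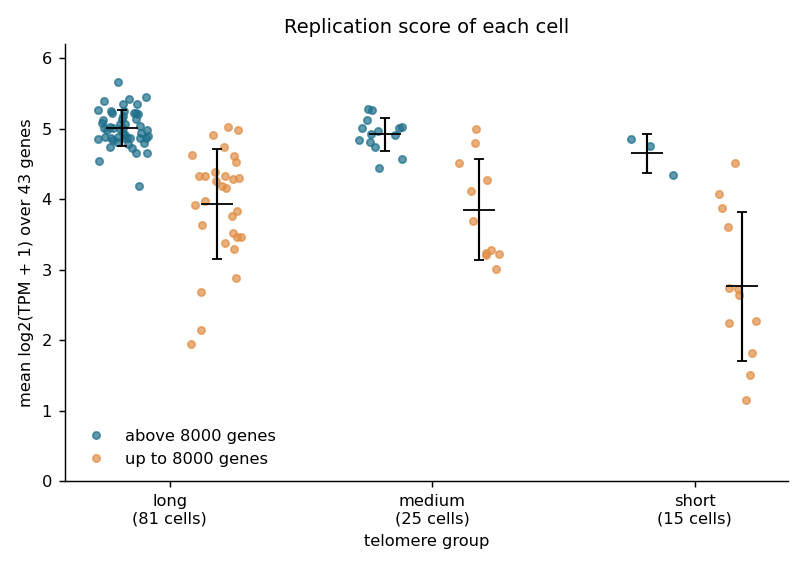
Replication score, the mean log2(TPM + 1) over 43 genes (vertical axis), of each cell by telomere group (horizontal axis). Blue points are cells above 8000 detected genes and orange points the others, and bars give the mean and the SD across cells. Blue points of all groups lay between 4.18 and 5.66, and the lowest orange point was a short telomere cell at 1.16.

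Gene by gene over all cells, 30 of the 43 genes were at least 1 higher on the log2 scale with long than with short telomeres and 0 were at least 1 lower. Of all 13439 genes, 38.9% were at least 1 higher in long telomere cells and 3.75% at least 1 lower. The median difference was 1.57 over the 43 genes and 0.70 over all genes. The 43 genes were more abundant than most, and the gap was small once the minimum was raised to TPM 10: 29 of 38 were then at least 1 higher, against 66.5% of 6213 genes, with medians of 1.59 and 1.40. Among all genes that differed by 1 or more, 91.2% were higher in long telomere cells, and 75.5% when TPM was divided by the median ratio over 602 genes above 0 in every cell, where 22 of the 43 were higher, against 29.1% of all genes, and 0 lower. In a list of 66 other replication and S-phase genes, 42 were at least 1 higher over all cells, with a median of 1.60. Above 8000 genes 5 of these 66 were at least 1 higher and 5 at least 1 lower, with a median of -0.06. The score over all 67 genes of that list, taken without the minimum mean TPM, differed there by 0.01 between long and short telomere cells. That of the 43 genes differed by 0.36. In cells with up to 8000 genes, 23 of the 43 were at least 1 higher in long telomere cells, against 26.4% of all genes, and 1 (CDT1) at least 1 lower, against 7.37%. In cells above 8000 genes, 6 genes were at least 1 higher, against 11.4% of all genes, namely MCM5, GINS4, PRIM2, POLD1, CCNE1 and CCNE2, and POLE2 was at least 1 lower, against 9.37%. This last comparison set 51 cells against 3, and 10 genes in place of 6 were higher once TPM was rescaled without ribosomal protein genes, against 13.6% of all genes. Between long and medium telomere cells above 8000 genes, 0 of the 43 differed by 1 or more in either direction, against 0.967% of all genes higher and 0.677% lower in long telomere cells.

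**Figure D3:**
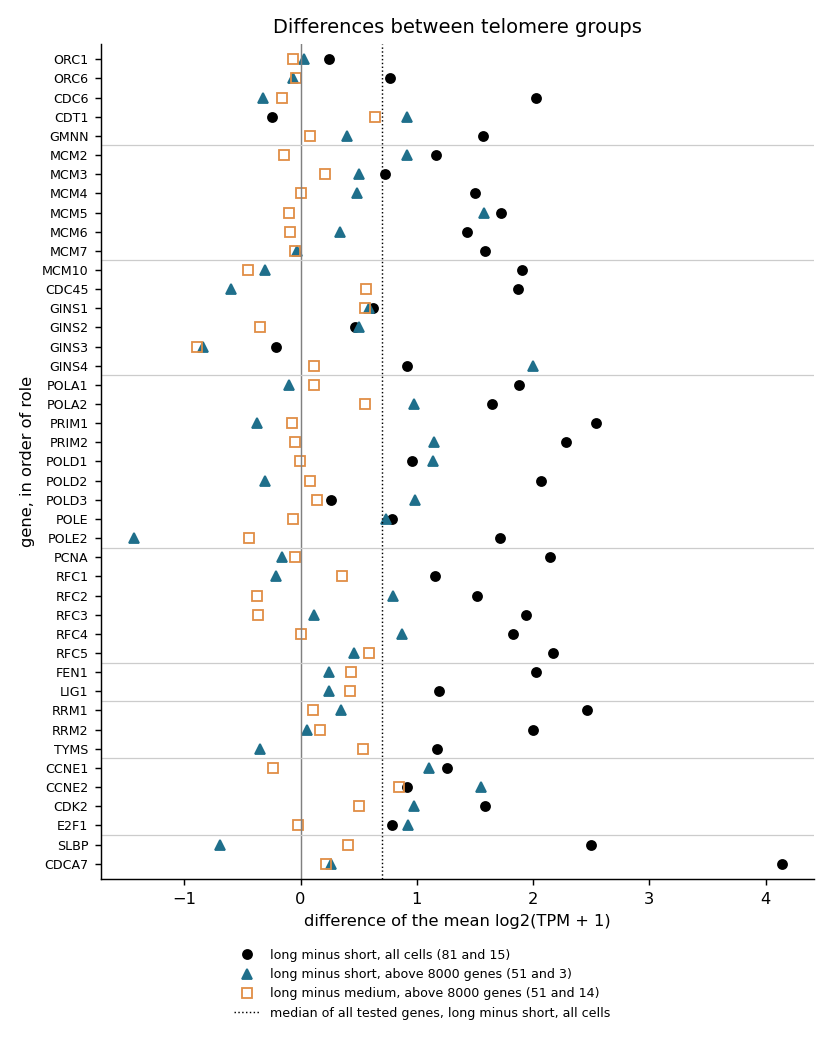
Difference of the mean log2(TPM + 1) between telomere groups (horizontal axis) for each of the 43 genes (vertical axis, grouped by role). Circles compare long with short telomere cells over all cells, triangles the same above 8000 genes, and squares long with medium telomere cells above 8000 genes. The circles had a median of 1.57, right of the dotted line at 0.70 for all tested genes, the triangles a median of 0.35 and the squares one of 0.01.

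The origin licensing genes differed widely among themselves, from -0.24 to 2.02 between long and short telomere cells over all cells. CDC6, the loader of the MCM helicase, had a median TPM of 43.5 in the long (0 to 620), 46.2 in the medium (1.25 to 170) and 4.64 in the short group (0 to 145). GMNN had medians of 279, 198 and 198. Short telomere cells spread widely for both, with SDs of 2.93 and 2.89 on the log2 scale, and their means were 2.02 and 1.57 lower than those of long telomere cells. ORC6 and ORC1, subunits of the origin recognition complex, were only 0.77 and 0.25 higher in long telomere cells, and ORC1 turned to -0.21 under the median-ratio scaling. CDT1, the licensing factor that geminin blocks, had the lowest difference of the 43. Its mean log2(TPM + 1) was 2.37 ± 1.63 in long and 2.61 ± 2.41 in short telomere cells over all cells. The sign depended on the set of cells: long telomere cells had 2.91 ± 1.08 above 8000 genes and 1.44 ± 1.98 up to 8000 genes, and short telomere cells up to 8000 genes had 2.76 ± 2.64. Of those 12 short telomere cells, 7 had CDT1 above TPM 1, and 11 of 30 long telomere cells did. The 3 short telomere cells above 8000 genes had TPM values of 1.98, 1.14 and 9.01, inside the long range of 0 to 29.2. CDT1 and its inhibitor GMNN had a correlation of 0.03 across cells above 8000 genes. The CDT1 gene lies at chr16:88870197-88875666 on the plus strand (GRCh37).

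The helicase subunits MCM2 to MCM7 had, as a group, means of 5.45, 5.48 and 4.10 over all cells of the long, medium and short groups. In cells above 8000 genes the means were 5.67 ± 0.41, 5.70 ± 0.50 and 5.04 ± 0.20, and in 92.8% of the pairs of 1 cell from either end the one with long telomeres was higher. The same 3 short telomere cells entered all pairs. In these pairs the value was 88.9% for the replication score, 88.9% for the hESC markers and 45.1% for the list of other replication genes. For MCM2 to MCM7 the 3 short telomere cells ranged from 4.83 to 5.23, inside the range of 4.17 to 6.54 of long telomere cells. MCM2 stood at TPM 8.48, 5.25 and 6.88 in these 3 cells, against a median of 14.0 in long telomere cells (0 to 81.7). MCM3 stood at 66.0, 83.7 and 97.3, against a median of 124 (43.8 to 195). For MCM2 and MCM3 all 3 short telomere cells were below the long mean, yet inside the long range. MCM5 stood at 5.84, 3.73 and 66.3 against a median of 39.3 (3.94 to 79.6), so its difference of 1.58 came from 2 of the 3 cells. MCM7 differed by -0.03 in the same set.

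Among the genes that activate the helicase, CDC45 and MCM10 were 1.87 and 1.91 higher in long than in short telomere cells over all cells, and CDC45 was listed with a median TPM of 14.6 in long and 0 in short telomere cells. In cells above 8000 genes both turned, to -0.60 and -0.30. The 4 GINS genes, whose products form 1 complex with CDC45 and the MCM ring, did not move together. GINS1 was 0.62 and GINS4 0.92 higher in long telomere cells over all cells, GINS2 0.47 higher and GINS3 0.21 lower, and GINS2 turned to -0.06 under the median-ratio scaling. GINS4 had the largest difference above 8000 genes, 2.00, with TPM values of 3.89, 8.75 and 0 in the short telomere cells and a median of 15.7 in long telomere cells (0 to 42.8). GINS2 was the gene least like the others with regard to detection: in long telomere cells its median TPM was 103 (12.3 to 531) above 8000 genes and 279 (0 to 1297) up to 8000 genes, a mean lower by 1.25 on the log2 scale in the gene-rich cells. Over the 43 genes 39 were higher in the gene-rich long telomere cells, against 86.9% of all genes and 64 of the 66 other replication genes. The median was 1.01 over the 43 genes and 0.84 over all genes. The 4 genes that were not higher were GINS2, RFC2, GMNN and POLD2.

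Polymerase and primase genes lay mostly in the lower range of levels. PRIM1 and PRIM2, the primase subunits, were 2.54 and 2.28 higher in long telomere cells over all cells, with PRIM1 at a median TPM of 99.8 in the long (0 to 307), 131 in the medium (0 to 540) and 12.3 in the short group (0 to 175). POLD2, a subunit of polymerase delta, was 2.07 higher. The catalytic subunits POLD1 and POLE were 0.96 and 0.79 higher at median TPM values of 2.45 and 1.82 in long telomere cells, where log2(TPM + 1) understates a fold. POLE2 turned: its mean was 1.72 higher in long telomere cells over all cells and 1.44 lower above 8000 genes. The 3 short telomere cells there had 102, 41.5 and 68.2 TPM, all above the long mean and 1 of them above the long maximum of 89.4. For PRIM1, the gene-rich short cells had 144, 175 and 100 TPM against a long median of 108, a difference of -0.37.

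The clamp PCNA was low in part of the short telomere cells. Its TPM had a median of 446 in the long (0.42 to 1556), 377 in the medium (99.0 to 888) and 128 in the short group (0 to 752), and the log2 means were 8.56 ± 1.39, 8.46 ± 0.83 and 6.41 ± 3.33. In cells above 8000 genes the 3 short telomere cells had 440, 619 and 410, on either side of the long median of 471, and the log2 difference was -0.16. Of the clamp loader subunits, RFC5 and RFC3 were 2.17 and 1.94 higher in long telomere cells over all cells and RFC1 1.16 higher. RFC5 was below the long mean in all 3 gene-rich short cells (33.2, 23.6 and 34.6 TPM against a long median of 47.3). Of the genes that join Okazaki fragments, the nuclease FEN1 was 2.03 and the ligase LIG1 1.19 higher with long than with short telomeres over all cells, and 0.25 and 0.24 higher above 8000 genes.

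Genes of nucleotide supply showed high levels and a difference that was small in gene-rich cells. The ribonucleotide reductase subunits RRM1 and RRM2 were 2.47 and 2.00 higher in long telomere cells over all cells, and 0.35 and 0.06 higher above 8000 genes, where RRM2 turned to -0.02 under the median-ratio scaling. Over all cells RRM2 had a median TPM of 162 in the long, 152 in the medium and 42.0 in the short group. Its values in the gene-rich short telomere cells were 150, 277 and 155, against a long median of 203 (70.9 to 499). TYMS, thymidylate synthase, was 1.17 higher in long telomere cells over all cells and 0.35 lower above 8000 genes.

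The S-phase entry genes were low in all groups. CCNE1, the other cyclin E gene, had a median TPM of 8.29 in the long, 9.56 in the medium and 0 in the short group. E2F1 was above TPM 1 in 36 of 81 long, 10 of 25 medium and 1 of 15 short telomere cells, and CCNE2 in 29, 6 and 1. In cells above 8000 genes, E2F1 had TPM values of 0, 0.88 and 0 and CCNE2 was listed at 0 in all 3 short telomere cells, while the long medians were also only 1.27 and 0.56. CDK2, the kinase partner of cyclin E, was 1.59 higher in long than in short telomere cells over all cells.

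CDCA7, a gene induced at S phase whose product acts with the chromatin remodeler HELLS, differed most of the 43. Its TPM had a median of 156 in the long (0 to 639), 121 in the medium (0 to 507) and 0.25 in the short group (0 to 243), and 72 of 81, 22 of 25 and 5 of 15 cells were above TPM 1. The difference of the log2 means was 4.14. CDCA7 also moved most with detection: in long telomere cells its log2 mean was 7.60 ± 1.09 above 8000 genes and 4.33 ± 3.10 below. In the gene-rich set the short telomere cells had 102, 243 and 169 TPM against a long median of 211 (4.73 to 639), a difference of 0.26. SLBP, the histone mRNA binding protein, was 2.50 higher in long telomere cells over all cells and 0.70 lower above 8000 genes, where all 3 short telomere cells (99.0, 107 and 57.2 TPM) exceeded the long mean. CDCA7 lies at chr2:174219548-174233725 on the plus strand (GRCh37).

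Across the 3 short telomere cells above 8000 genes, then, 8 of the 43 genes were below the long mean in every one (MCM2, MCM3, GINS2, GINS4, RFC5, LIG1, CCNE2 and E2F1) and 2, POLE2 and SLBP, were above it in every one. Of all genes, 19.9% were below the long mean in all 3 cells and 12.1% in none of them, so the 8 genes stood near the share of all genes. Levels of PCNA, RRM2, TYMS, ORC1, POLD2, RFC3, RFC5 and FEN1 are less certain than the rest, because the annotation holds 13 pseudogenes named after these 8 genes that could share reads with them.

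For the relation with telomere length itself, the correlation of TPM without a logarithm with the T/R ratio was computed for each gene. The T/R ratio is 1 measurement per cell with an unknown error. Over all 121 cells the 43 coefficients ran from -0.17 (CDT1) to 0.27 (RRM1) with a median of 0.07, against 0.01 over all genes. In this set 5 of the 43 reached 0.2, against 8.24% of all genes. In the 68 cells above 8000 genes they ran from -0.11 (MCM7) to 0.39 (RFC5), with a median of 0.12 against 0.02, and 13 of the 43 reached 0.2, against 8.81%. Of the 66 other replication genes, 7 reached 0.2 in this set, with a median of 0.02. The 2 cells with the most extreme T/R ratios, counted from the median, were then left out. The median of the 43 was then 0.04, and 7 of the 43 reached 0.2, against 9.25% of all genes. Of the 66 other replication genes, 9 reached 0.2 without these cells, also with a median of 0.04. Of the 13 genes, MCM3, MCM6, GINS1, GINS4, POLD1 and RFC5 still reached 0.2. The other 7 did not: CDT1 (0.16), RRM2 (0.18), TYMS (0.19), CDK2 (0.12), RRM1 (0.08), POLE (0.08) and MCM2 (0.07). RFC5 kept 0.40 without them and had a Spearman's rho of 0.41. The T/R ratio and the replication score had a Pearson correlation of 0.36 above 8000 genes (rho 0.31) and of 0.31 without the 2 cells. Within the 51 long telomere cells it was 0.31 (rho 0.26), and 0.22 without the 2 farthest of them. Within the 14 medium telomere cells it was -0.00 and turned to 0.30 without the 2 farthest of them. Over all 121 cells it was 0.18 (rho 0.25).

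The replication score and the mitosis score, the mean over CCNB1, CDC20, PLK1, TOP2A and 20 further mitosis genes, stood in opposite relations in the 2 sets of cells. Up to 8000 genes they had a Pearson correlation of 0.66 (rho 0.61), and over all cells one of 0.71 (rho 0.46). Above 8000 genes it was -0.37 (rho -0.42), and given the number of detected genes -0.41. Leaving out the 2 cells with the most extreme mitosis scores, it was -0.51. Within the 51 long telomere cells of this set it was -0.52 (rho -0.54). Within the 14 medium telomere cells it was 0.09 (rho -0.02) and turned to -0.34 without the 2 farthest, so the sign was not stable there. The score over all 67 genes of the other replication list had a correlation of -0.04 with the mitosis score in the gene-rich set, although it had a correlation of 0.58 with the replication score. The 3 gene-rich short telomere cells had mitosis scores of 6.76, 5.18 and 7.11, against 6.02 ± 0.70 in the long telomere cells. The lowest of the 3 replication scores, 4.34, was in the cell with the highest mitosis score of the 3.

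**Figure D4:**
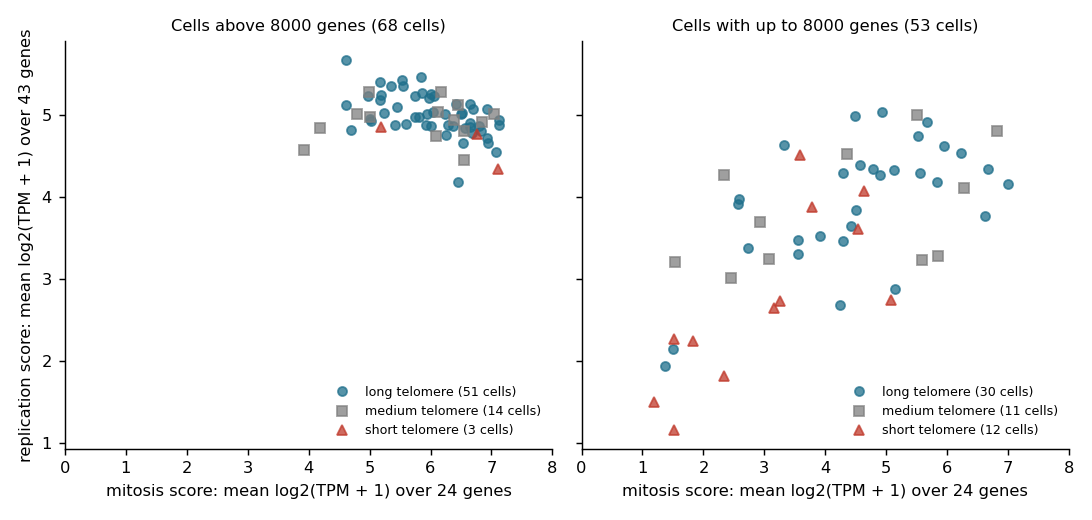
Replication score (vertical axis, 43 genes) against the mitosis score (horizontal axis, 24 genes), both as mean log2(TPM + 1), with 1 symbol per cell. In the left panel, of 68 cells above 8000 detected genes, the cloud slopes down (Pearson's r -0.37), and in the right panel, of the other 53 cells, it slopes up (0.66).

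Single genes differed in this relation. In the 68 cells above 8000 genes the correlation with the mitosis score was -0.3 or lower for 8 of the 43 genes, against 1.07% of all genes. It was 0.3 or higher for 1, GINS1 (0.31), against 4.99%. The count at -0.3 or lower was chosen after seeing the data. The 8 were MCM4 (-0.45), E2F1 (-0.42), CDC6 (-0.38), MCM6 (-0.35), MCM2 (-0.35), POLE (-0.33), MCM10 (-0.33) and GINS4 (-0.32). They lie in origin licensing, in the helicase and its activation and at S-phase entry, with POLE as the polymerase gene. Other genes of these roles did not reach -0.3, such as ORC1 (0.02), MCM3 (0.04), CDC45 (-0.12) and CCNE2 (-0.18). With Spearman's rho 6 of the 8 remained, and PCNA and FEN1 took the places of GINS4 and POLE. Within the long telomere cells alone 5 of the 8 remained, and CDC6, MCM2 and MCM10 did not, the highest of the 8 being -0.27. GINS1 had only 0.07 within the long telomere cells, where the highest of the 43 was POLA2 (0.23). CCNE1 (-0.27) and PCNA (-0.26) came next in order. The ribonucleotide reductase genes, RRM2 (-0.00) and RRM1 (0.07), the primase gene PRIM1 (0.19) and the polymerase alpha genes POLA1 (0.07) and POLA2 (0.26) were near 0 or above. The median was -0.08 over the 43 genes and 0.04 over all genes. Of the 43 genes 28 were below 0. The other 15 were above it, against 60.6% of all genes and 32 of the 66 other replication genes. Among the 66 other replication genes, 4 were at -0.3 or lower: E2F2 (-0.45), a further activating E2F factor, SSRP1 (-0.45), a subunit of the histone chaperone FACT, UNG (-0.40), which removes uracil from DNA, and CLSPN (-0.33), the checkpoint mediator claspin.

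**Figure D5:**
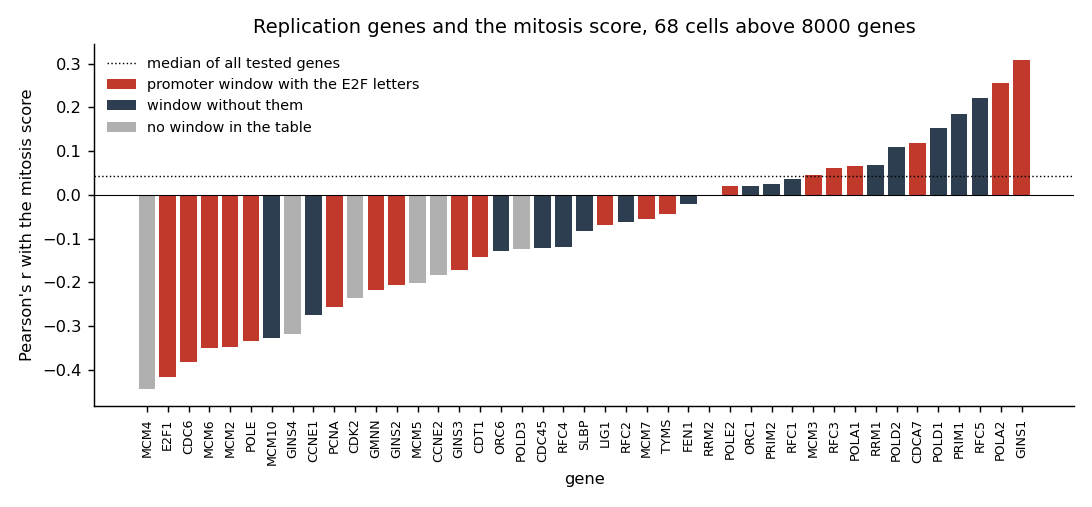
Pearson's r of log2(TPM + 1) with the mitosis score for each of the 43 genes in 68 cells above 8000 detected genes, in rising order. Red bars are genes whose promoter window held the E2F letters, dark bars genes without them and grey bars genes with no window. MCM4 was lowest at -0.45 and GINS1 highest at 0.31, and the dotted line at 0.04 is the median of all tested genes.

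The promoter letters were set beside this relation as a description, with no test. The 20 genes with the E2F letters had a median correlation of -0.11 with the mitosis score, from -0.42 to 0.31, and 5 of them were at -0.3 or lower. The 17 genes without them had a median of -0.00, and 1 of them, MCM10, was at -0.3 or lower. The 6 genes with no window had the lowest median, -0.22. All 6 were below 0, and 2 of them were at -0.3 or lower, among them MCM4. The highest value of all, GINS1, belonged to a gene with the letters. The median correlation between pairs of genes was 0.05 with the letters, 0.03 without and 0.15 for the 6 genes with no window.

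As a whole the 43 genes were only loosely tied to each other in gene-rich cells. Over their 903 pairs the median correlation of log2(TPM + 1) was 0.05 above 8000 genes and 0.21 over all cells, against 0.44 for the pairs of mitosis genes above 8000 genes and 0.01 for pairs of all tested genes. Of the 903 pairs, 74 (8.19%) reached 0.3, against 1.75% of the pairs of all genes. A further 18 were at -0.3 or lower, for which no share over all genes was computed. Complexes differed. The 15 pairs within MCM2 to MCM7 had a median of 0.27 and went up to 0.44, and the 3 pairs of RRM1, RRM2 and TYMS had a median of 0.32. The 15 pairs of the clamp and its loader had a median of 0.03, and the 15 pairs of the helicase activation genes one of -0.03. The closest pairs were MCM4 with GMNN (0.48), GINS1 with RFC5 (0.48), PCNA with MCM4 (0.47) and PRIM2 with CDCA7 (0.46). The most opposed were GMNN with CDCA7 (-0.47), PRIM2 with POLD2 (-0.45), POLD3 with CDCA7 (-0.44) and MCM10 with GINS1 (-0.41). Each of the 43 genes was also set against the mean log2(TPM + 1) over the others of the 43. MCM4 followed that mean most closely (0.71), and CDCA7 went against it (-0.23), although CDCA7 had one of the highest levels.

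Outside the 43 genes, the 6168 other genes that reached a mean TPM of 10 and varied in the 68 gene-rich cells were ranked by their correlation with the replication score. UNG was the highest (0.57), followed by DNPH1 (0.53), which hydrolyses a modified nucleotide, EZH2 (0.51), the histone H3 lysine methyltransferase of Polycomb, TERF1 (0.48), which binds telomere repeats, and RAD23B (0.47), a factor of nucleotide excision repair. HSP90AB1, YWHAE, SSRP1 and MAP3K7 had values of 0.46 to 0.43. TERF1 itself had r values of 0.55 with the T/R ratio, 0.00 with the mitosis score and 0.29 with the replication score within long telomere cells alone. UNG had 0.23 with the T/R ratio and -0.40 with the mitosis score. The lowest were NUF2 (-0.55), a kinetochore gene, LOC101928254 (-0.45), CDC20 (-0.42), the activator of the anaphase-promoting complex, KIF2C (-0.40), a mitotic kinesin, and CENPF (-0.39), a centromere protein. CDC20 and CENPF are in the list of mitosis genes, and NUF2 and KIF2C are not.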

How the data were processed

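Per the labels, 121 single WA26 cells were processed by scT&R-seq, 1 library per cell. For the authors' table, reads were aligned by TopHat against hg19 and assigned to RefGene genes by HTSeq. The submitters' processing notes name TopHat2 and RSEM. For its TPM table the study names scaling of counts by library size with size factors, a step that by itself gives neither a fixed sum per cell nor a scaling by length. The deposited TPM columns summed to nearly the same total in each cell and their lowest values fell with transcript length, so they were read as TPM, without pooling; 1 incomplete row was left out. T/R ratios were read from the list published with the study and used only for correlations.

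Values were compared as log2(TPM + 1), with detection above TPM 1 and a minimum mean TPM of 1 over all cells. All 43 genes are reported; other genes named are the 10 highest and 5 lowest by correlation with the replication score at a mean TPM of at least 10, and members of the 2 lists of other replication and of mitosis genes. Part of these other genes is not reported here. The genes, lists and the border of 8000 genes were chosen with earlier results of these data known. GRCh37 positions and pseudogene names come from GENCODE, promoter windows from RefSeq. Calculations used Python 3.11.15, matplotlib 3.10.9, pandas 2.3.3, scipy 1.17.1 and numpy 2.4.6 and were tested on simulated data. No p-value was computed. Alternatives included other pseudocounts, medians, 2 rescalings of TPM, other borders, Spearman's rho and partial correlation.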

Additional observations from a re-analysis of the deposited data

How the results depend on the processing

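Of 78 recalculated values, 72 moved by less than the limit set for them. The limit was 1 SD across long telomere cells for differences of the replication score, 0.1 for correlations and 1.5 times for numbers of genes. Some values were smaller than their own limit, so staying within it says little about them. The long minus medium difference over all cells was 0.16, with a limit of 0.73. The median correlation with the T/R ratio over all cells was 0.07 and became 0.01 under the median-ratio scaling. With a pseudocount of 10 the long minus short difference over all cells was 0.71 in place of 1.47, and 11 in place of 30 genes were at least 1 higher in long telomere cells, against 10.7% of all genes, whose median was 0.20. At a size of 2 on the log2 scale 10 genes were higher, against 11.6%. With a pseudocount of 0.1, 1 gene was at least 1 higher in long than in medium telomere cells above 8000 genes, in place of 0, against 6.64%. Chosen after seeing the data, the correlation of the replication and mitosis scores was -0.52 in long telomere cells alone and -0.16 without the 8 genes at -0.3 or lower, which were picked by that relation. Leaving out each short telomere cell above 8000 genes, also chosen after seeing the data, gave differences from long telomere cells of 0.20 to 0.46. Dividing TPM by the median ratio over 602 genes moved the median difference of all genes between long and short telomere cells by -0.23, and the replication score difference became 1.04. Under this scaling 4 genes changed the sign of their difference over all cells (MCM3, GINS2, ORC1 and POLD3), 2 above 8000 genes (ORC1 and RRM2) and 4 up to 8000 genes (MCM3, GINS4, ORC6 and POLE). None of the 78 values changed sign. TPM keeps no depth, so the precision of single values is unknown, and no paired analysis was possible because the result comes from no test.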
